A study of Mus musculus with 4 samples.

Results

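The genes described here build and steer the endosomal sorting system of the cell, and they were measured in macrophages after contact with exosomes. The set has 50 named genes: the ESCRT complexes and their partners, a selection of Rab GTPases with the tether EEA1, the clathrin and AP2 coat with dynamin-2, and the retromer with its sorting nexins. They were chosen by name, by matching the gene identifiers of the authors' table to symbols. Of the 50 genes, 48 were found among the 53139 loci of the table, and all 48 belong to the 12648 loci that the authors tested. Chmp1a and Rab4a are not analysed here.

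RNA was sequenced in 4 samples of mouse macrophages that came from MCA fibrosarcoma tumours (tumour line 9609, cell line label 9609 parent, genotype WT). In culture, 2 samples received MEK1-hi exosomes and 2 received MEK1-low exosomes, which the labels also mark as GFP. MEK1 is the kinase upstream of ERK, and exosomes are small vesicles that cells release from endosomes. All 4 samples received exosomes, so every difference below is relative to MEK1-low exosomes, and the MEK1 content cannot be told apart from any other difference between the exosome sources. The labels used here give neither dose, time nor animal age, and do not tell whether 2 samples of a group are separate cultures. P-values then measure at most the spread between these samples, which may be technical.

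Endosomes sort what a cell takes up. Cargo enters through clathrin-coated pits, reaches early endosomes marked by RAB5, and from there either returns to the surface through recycling Rabs, travels back to the Golgi through retromer, or is packed by the ESCRT complexes into vesicles inside the endosome. Endosomes filled with such vesicles either fuse with lysosomes, a step that uses RAB7, or fuse with the cell surface and release the vesicles as exosomes, a step in which RAB27A takes part. Macrophages are professional phagocytes and use the same machinery to mature phagosomes.

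Each level is the authors' value for a group in FPKM (fragments per kilobase of transcript, relative to library size), 1 value per group with no value per sample. For this reason no SD can be given, the depth is unknown, and the tests are those of the authors' Cuffdiff run. A gene is called where the deposited q-value is under 0.05. Log2 fold changes of single genes put MEK1-hi over MEK1-low, and medians of groups are on the log2(FPKM + 1) scale over loci at 1 FPKM or more. In these bulk samples, fewer cells of a type and less RNA per cell cannot be told apart.

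The labelled cell type was checked on marker genes. The 8 macrophage markers were all tested and summed to 16014 FPKM in the MEK1-low group and 16623 FPKM in the MEK1-hi group. Lyz2 (lysozyme) makes up most of this sum, and without it the other 7 summed to 3711 and 3475 FPKM, the opposite direction. Values were higher in 5 of the 8 and lower in 3. Cd14, a co-receptor for lipopolysaccharide, fell from 213 to 136 FPKM (log2 fold change -0.65, q = 0.00349 in the authors' deposited table) and was the 1 marker of any cell type called. Csf1r stood at 855 and 672 FPKM, Adgre1 at 387 and 318 FPKM, and Fcgr1 at 107 and 153 FPKM. The 7 fibroblast and stroma markers summed to 5.71 and 4.60 FPKM. The 6 neutrophil markers summed to 0.112 and 0.0606 FPKM, with S100a9, Ly6g, Mpo, Elane and Ngp listed at 0 in both groups. T cell markers reached 6.52 and 4.52 FPKM through Cd4, while Cd3e stood at 0.0702 and 0.107 FPKM. B cell markers summed to 2.25 and 2.12 FPKM, mostly through Cd79b at 2.25 and 2.09 FPKM, while Cd79a was listed at 0 in both groups. Endothelial markers summed to 1.11 and 0.909 FPKM, with Kdr at 0.618 and 0.695 FPKM and Tek listed at 0 in both groups. The part of these markers in the results below was not tested. Map2k1, which encodes MEK1, stood at 63.3 and 57.0 FPKM in the recipient cells (p = 0.341 in the authors' deposited table).

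Cuffdiff called none of the 48 endosomal sorting genes in the authors' deposited table, 0 higher and 0 lower with MEK1-hi exosomes, beside 2.44% of all tested loci. With the unadjusted p of the authors' deposited table taken alone, under 0.05, 1 was higher (Rab27a) and 2 were lower (Rab20 and Rab4b), beside 3.53% of all tested loci higher and 5.12% lower, and 8.66% in either direction. No gene of the set differed by more than 2-fold, 5 differed by more than 1.2-fold, and 32 of the 48 stood within 10% of each other in the 2 groups. Values were higher with MEK1-hi exosomes in 26 genes and lower in 22, or 32 and 16 when each group was rescaled to the same FPKM total. On the log2 scale the median difference was 0.00 and the median absolute difference 0.10, beside 0.00 and 0.13 for the 11804 tested loci at 1 FPKM or more. The lowest q of the set in the authors' deposited table was 0.276.

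The size of change that the authors' test called at these levels can be read from the other loci. Among the 7795 tested loci with a mean of 5 FPKM or more and an absolute log2 fold change under 0.4, 0 were called, and 47 of the 48 genes lie there. Between 0.5 and 0.6, 22.1% of 195 loci were called, and between 0.8 and 1, 76.8% of 69 loci. At 1 and more the share was lower again, 65.5% of 113 loci. Over all called loci, the smallest difference in either direction was 0.48 on the log2 scale. Observed differences of the size seen in these 47 genes were thus not called at any such locus, and the missing calls do not show equal levels. These shares are by observed difference, so they do not tell which true differences the test could detect. The remaining gene, Rab27a, differed by more but lies under 5 FPKM, where no such share was computed.

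**Figure D1:**
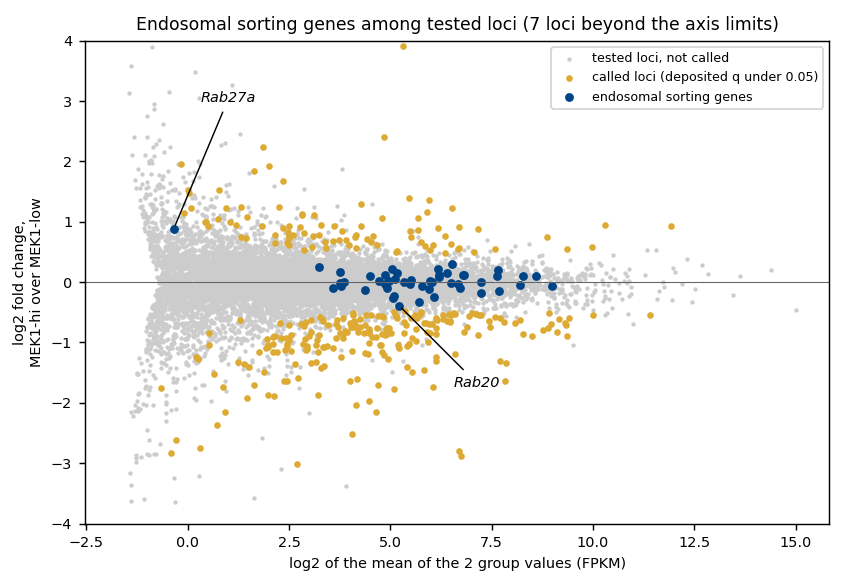
Log2 fold change (MEK1-hi over MEK1-low, vertical) against the log2 mean of the 2 group values in FPKM (horizontal) for tested loci above 0 in both groups. Grey points are loci not called, yellow points are called loci and blue points are the 48 endosomal sorting genes, which all lie in the band of loci not called, with Rab27a at the left edge and the others near 0. A further 7 loci lie beyond the vertical limits of 4 either way.

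The machinery was abundant. The median gene of the set had a level above 85.8% of all tested loci. In both groups, 13 genes stood at 100 FPKM or more and 7 under 20 FPKM. Sdcbp, which encodes the exosome adaptor syntenin, had the highest level, at 522 FPKM in the MEK1-low group and 499 FPKM in the MEK1-hi group. It was followed by the clathrin light chain gene Clta at 375 and 402 FPKM. Rab7, which directs late endosomes to lysosomes, stood at 299 and 288 FPKM, and Rab11a, of recycling endosomes, at 297 and 318 FPKM. At the other end, Rab27a stood at 0.553 and 1.02 FPKM and the tether gene Eea1 at 8.66 and 10.3 FPKM. FPKM is per length, so these levels can be roughly compared between genes. The loci of Rab11a and Rab27a are joined with other genes, so their values are not those of Rab11a and Rab27a alone. The order of the genes was much the same in the 2 groups, and no gene moved by more than 6 of the 48 ranks.

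**Figure D2:**
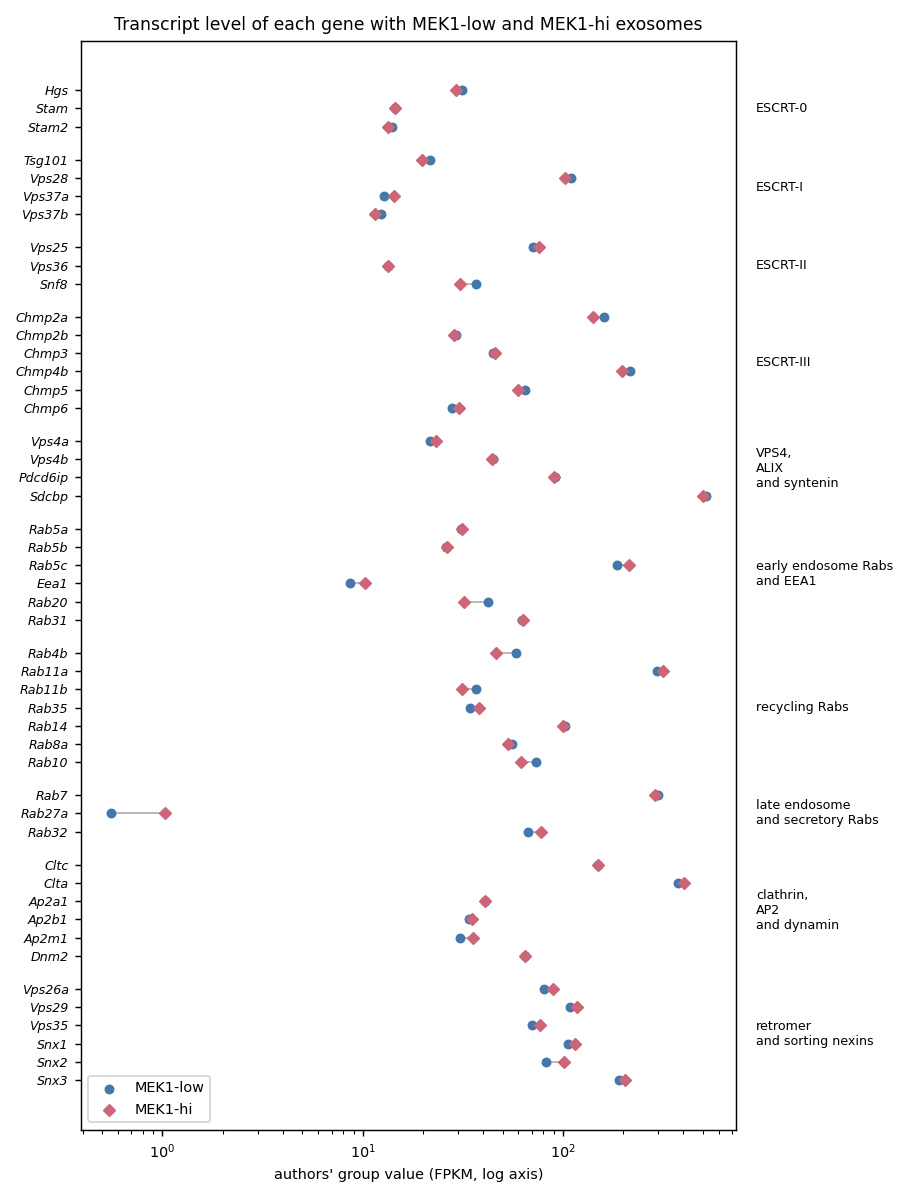
Authors' group value of each gene in FPKM (horizontal, log axis), with MEK1-low as blue circles and MEK1-hi as red diamonds, ordered by complex or step. The paired symbols nearly coincide for most genes, and Rab27a stands apart at 0.553 and 1.02 FPKM.

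The ESCRT genes act in sequence. ESCRT-0, built from HGS and STAM, gathers ubiquitinated cargo. Hgs stood at 31.2 and 29.2 FPKM with MEK1-low and MEK1-hi exosomes, Stam at 14.5 and 14.6 FPKM, and Stam2 at 14.0 and 13.5 FPKM. The Stam2 locus is joined with Gm13548, so that their reads cannot be told apart. The p-values of the 3 in the authors' deposited table were 0.52 or more, and the group values lie close together for each.

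ESCRT-I takes over the cargo. Its gene of highest level, Vps28, stood at 110 and 102 FPKM in a locus joined with Tonsl. Tsg101, which encodes the ubiquitin-binding subunit, stood at 21.7 and 19.8 FPKM (log2 fold change -0.13, p = 0.457, q = 0.999 in the authors' deposited table). Vps37a stood at 12.8 and 14.4 FPKM and Vps37b at 12.3 and 11.5 FPKM. Of the 4 genes, 3 had lower values and Vps37a had a higher one.

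ESCRT-II bridges to the last complex. Vps25, in a locus joined with Ramp2, stood at 71.3 and 75.7 FPKM and Vps36 at 13.4 FPKM in both groups. Snf8, which encodes the subunit also called VPS22, stood at 36.8 and 30.5 FPKM. This difference, -0.27 on the log2 scale, was the largest among the ESCRT genes of the set (p = 0.107, q = 0.815 in the authors' deposited table).

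ESCRT-III proteins polymerise at the neck of the forming vesicle. Chmp4b, whose protein forms the main filament, stood at 217 and 197 FPKM (log2 fold change -0.14, p = 0.344 in the authors' deposited table). Chmp2a stood at 160 and 142 FPKM (log2 fold change -0.17, p = 0.25 in the authors' deposited table). These were the ESCRT-III genes of highest level, and both had lower values with MEK1-hi exosomes. Chmp5 stood at 64.4 and 59.5 FPKM and Chmp2b at 29.3 and 28.6 FPKM, also lower. Chmp3 (44.9 and 45.7 FPKM) and Chmp6 (28.0 and 30.3 FPKM), whose protein starts filament growth, had higher values. No other ESCRT-III gene had a smaller p than Chmp2a.

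VPS4 is the ATPase that takes the filaments apart. Vps4a stood at 21.7 and 23.3 FPKM and Vps4b at 44.9 and 44.1 FPKM. Pdcd6ip, which encodes ALIX, a link from ESCRT-III to syntenin, stood at 91.3 and 90.5 FPKM (log2 fold change -0.01, p = 0.934 in the authors' deposited table). Sdcbp, named above for the highest level, stood at -0.06 on the log2 fold scale (p = 0.703 in the authors' deposited table). Over the 20 ESCRT, VPS4, ALIX and syntenin genes together, values were lower in 14 and higher in 6, and the median log2 fold change was -0.05. Values were thus higher in 30% of these genes, beside 50.2% of the 11804 loci. When each group was rescaled to the same FPKM total, which adds 0.04 to every log2 value, the split was 10 and 10, or 50% higher beside 58.3% of the loci. Centring on the median of all loci adds only -0.001 to every log2 value and left the split at 6 higher and 14 lower. None of the 20 genes was called in the authors' deposited table or reached an unadjusted p under 0.05.

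The Rab GTPases are molecular switches, each marking a step of transport. Of 16 named Rabs, 15 were measured. Their values were higher in 8 and lower in 7, with Rab27a, then Rab20 and Rab4b, at an unadjusted p under 0.05 and 0 called in the authors' deposited table. The lowest log2 fold change was that of Rab20, a Rab of early endosomes and phagosomes in macrophages. Rab20 (chromosome 8, 11453518 to 11480241, mm10) stood at 42.1 FPKM in the MEK1-low group and 32.2 FPKM in the MEK1-hi group, 1.31-fold lower (log2 fold change -0.39, p = 0.0139, q = 0.276 in the authors' deposited table). Rab4b, of rapid recycling, stood at 58.2 and 46.5 FPKM (log2 fold change -0.33, p = 0.0392, q = 0.507 in the authors' deposited table). Its locus (chromosome 7, 27168424 to 27181157) is joined with Mia, Mir3101 and Gm21983, so the value is not that of Rab4b alone.

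Rab27a, which docks secretory endosomes at the cell surface, showed the largest difference of the set at the lowest level. Its locus, joined with Gm27186 (chromosome 9, 73044854 to 73097629), stood at 0.553 FPKM in the MEK1-low group and 1.02 FPKM in the MEK1-hi group (log2 fold change 0.89, p = 0.0412, q = 0.517 in the authors' deposited table). On the log2(FPKM + 1) scale, the difference was 0.38. Its mean level stood at percentile 5.60 of the tested loci. The related Rab27b stood at 0.0127 and 0.0484 FPKM and was not tested. Of the RAB27 effectors listed, Unc13d stood at 12.0 and 11.6 FPKM, Sytl1 at 0.0334 and 0.153 FPKM, and Sytl3 and Sytl4 were listed at 0 in both groups.

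Promoter sequences of 3 genes are shown next, chosen after the search described here because each holds the motif CACGTG. Among them are Rab20 and Rab27a, which had the lowest and the highest log2 fold change of the set, and Vps26a, the 1 retromer gene with the motif. Rab4b, the other gene at an unadjusted p under 0.05, has a window without it. They are from RefSeq (GRCm38.p6), run 5′ to 3′ on the gene's strand from 250 bases before to 50 after a transcript start, and capitals mark CACGTG, the E-box bound by several basic helix-loop-helix factors including those that control lysosomal genes. The windows are chr8:11478591-11478890 (minus strand) for Rab20, chr9:73063898-73064197 (plus strand) for the downstream of the 2 starts listed for Rab27a, and chr10:62486756-62487055 (minus strand) for the first of the 2 windows listed for Vps26a.
Rab20: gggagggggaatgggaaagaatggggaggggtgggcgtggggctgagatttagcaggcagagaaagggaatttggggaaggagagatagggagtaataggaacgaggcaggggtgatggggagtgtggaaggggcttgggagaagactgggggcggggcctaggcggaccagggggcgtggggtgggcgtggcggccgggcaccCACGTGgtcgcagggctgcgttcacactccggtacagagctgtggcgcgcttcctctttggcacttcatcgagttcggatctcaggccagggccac
Rab27a: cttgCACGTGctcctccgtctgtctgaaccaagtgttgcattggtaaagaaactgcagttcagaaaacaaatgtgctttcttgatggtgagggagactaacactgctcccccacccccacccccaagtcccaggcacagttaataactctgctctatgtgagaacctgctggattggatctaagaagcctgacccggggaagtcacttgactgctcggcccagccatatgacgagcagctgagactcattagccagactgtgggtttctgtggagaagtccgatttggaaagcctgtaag
Vps26a: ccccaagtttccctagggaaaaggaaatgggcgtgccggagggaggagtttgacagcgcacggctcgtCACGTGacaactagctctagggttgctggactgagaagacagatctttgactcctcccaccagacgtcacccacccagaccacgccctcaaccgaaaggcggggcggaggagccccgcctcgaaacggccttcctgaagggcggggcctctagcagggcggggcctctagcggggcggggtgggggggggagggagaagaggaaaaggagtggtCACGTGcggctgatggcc
The Rab20 E-box begins 46 bases before the start and that of Rab27a 246 bases before it. The window of the upstream Rab27a start, chr9:73044560-73044859, at the edge of the measured locus, holds no CACGTG. The Vps26a window has 2, of which the first begins 182 bases before the start.

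Of the 50 genes, 41 had a promoter in the RefSeq table. CACGTG, which reads the same on both strands, was present for 6 of them (Ap2m1, Pdcd6ip, Rab20, Rab27a, Rab5a and Vps26a), or 14.6%, and for 8.09% of all 27025 genes with a promoter in the table. The longer TCACGTG, searched on both strands and containing the former, was present for 3 (Pdcd6ip, Rab5a and Vps26a), or 7.32%, and for 4.29% of all genes. The 6 genes with an E-box had log2 fold changes on both sides of 0, from -0.39 for Rab20 to 0.89 for Rab27a. These matches are letters in a window and say nothing of binding.

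The RAB5 genes, which define early endosomes, had higher values in all 3 members, with 0 called. The scalings tried add 0.04 or -0.001 to every log2 value and could not turn these signs. Rab5c stood at 187 and 214 FPKM (log2 fold change 0.20, p = 0.179, q = 0.946 in the authors' deposited table). Rab5a stood at 30.9 and 31.3 FPKM and Rab5b at 26.0 and 26.3 FPKM. Both differed by only 0.02 on the log2 scale (p = 0.897 and 0.899 in the authors' deposited table). Rab5c thus made up 76.6% of the summed RAB5 level in the MEK1-low group and 78.8% in the MEK1-hi group. Eea1, whose protein tethers RAB5 vesicles, was 1.19-fold higher in value (log2 fold change 0.25, p = 0.0936, q = 0.766 in the authors' deposited table). Rab31, which acts between the Golgi and endosomes, stood at 62.2 and 63.1 FPKM. In this early group Rab20 alone had a lower value.

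The recycling Rabs leaned to lower values, 5 of 7, or 4 of 7 after rescaling to the same total. Rab11a, the most abundant, differed by 0.10 on the log2 scale (p = 0.722 in the authors' deposited table) in a locus joined with Gm47308. Rab11b stood at 36.9 and 31.5 FPKM (log2 fold change -0.23, p = 0.221 in the authors' deposited table), so that the Rab11a share of the pair was 88.9% and 91.0%. Rab10, of exocytic and recycling carriers, stood at 73.5 and 62.1 FPKM (log2 fold change -0.24, p = 0.111 in the authors' deposited table). Rab14, which acts between the Golgi and endosomes, stood at 102 and 101 FPKM, and Rab8a, of exocytic carriers, at 56.0 and 53.4 FPKM. Rab35, of fast recycling and exosome release, stood at 34.3 and 37.9 FPKM, higher in value like Rab11a.

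Of the late Rabs, Rab7 had a difference of -0.05 on the log2 scale (p = 0.732 in the authors' deposited table). Rab32, which serves lysosome-related organelles, stood at 67.2 and 78.2 FPKM (log2 fold change 0.22, p = 0.134, q = 0.864 in the authors' deposited table).

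**Figure D3:**
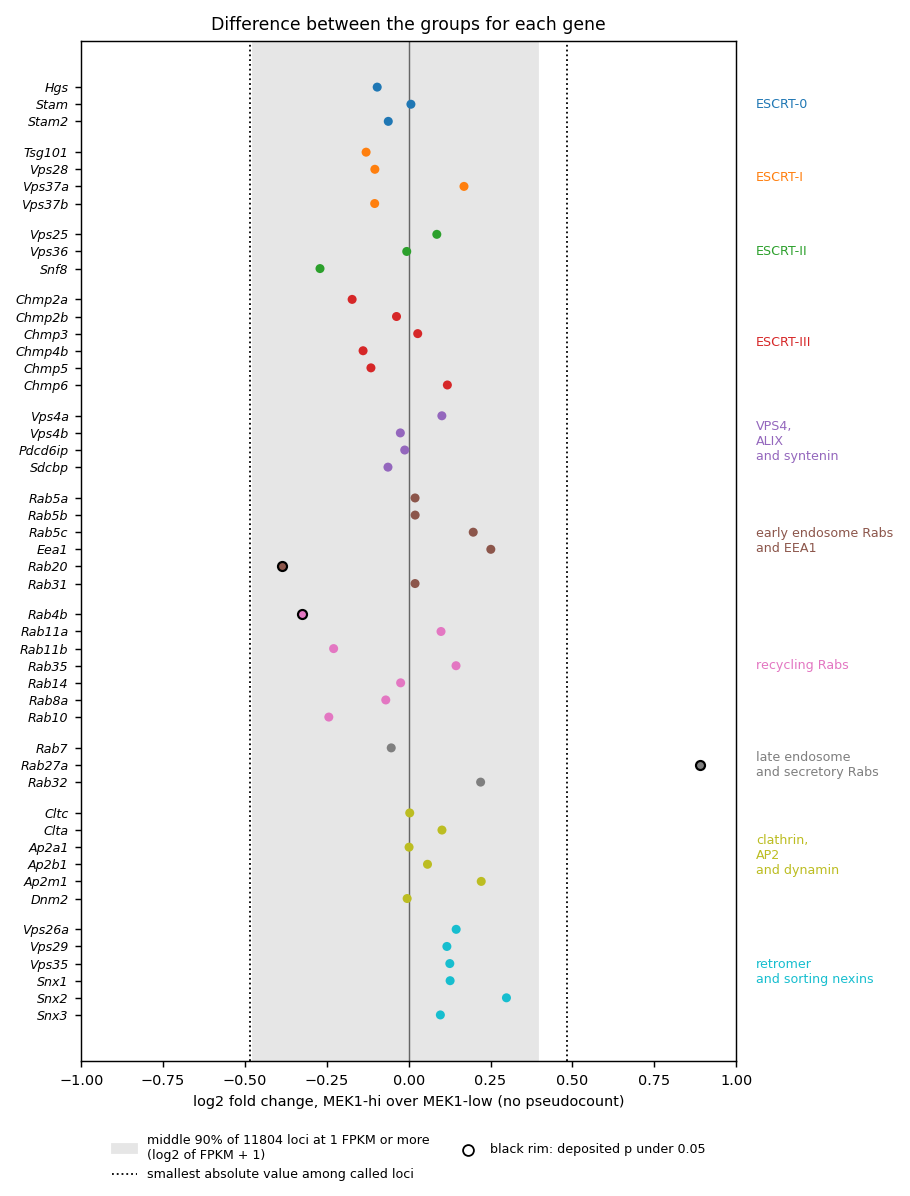
Log2 fold change (MEK1-hi over MEK1-low, no pseudocount) of each of the 48 genes, coloured by complex or step. Black rims mark a deposited p under 0.05 (Rab20, Rab4b and Rab27a), the grey band spans the middle 90% of 11804 loci on the log2(FPKM + 1) scale, and dotted lines mark 0.48 either way, the smallest change among called loci.

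Of the set's genes for the clathrin coat and AP2, its adaptor at the plasma membrane, all but Ap2m1 differed by less than 10% in value. Cltc, the clathrin heavy chain, stood at 150 and 151 FPKM (log2 fold change 0.00, p = 0.987 in the authors' deposited table). Clta differed by 0.10 on the log2 scale (p = 0.49 in the authors' deposited table). The AP2 alpha and beta genes Ap2a1 (40.7 FPKM in both groups) and Ap2b1 (33.8 and 35.2 FPKM) differed by less than 10%. Ap2m1, whose subunit reads sorting signals, stood at 30.5 and 35.5 FPKM (log2 fold change 0.22, p = 0.264 in the authors' deposited table). Dnm2, the dynamin that cuts the coated vesicle free, stood at 64.8 and 64.6 FPKM. Values were higher in 5 of the 6, or in all 6 after rescaling to the same total, with a median log2 fold change of 0.03.

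Among the groups of the set, the retromer genes alone had values in a single direction as deposited, while after rescaling to the same total the clathrin, AP2 and dynamin genes did so too. All 6 retromer and sorting nexin genes had higher values with MEK1-hi exosomes, by between 0.10 and 0.30 on the log2 scale, and 0 were called. Both other scalings tried add only 0.04 or -0.001 to every log2 value. They could not change the sign of any of the 6 and are no check of the direction. The core trimer of VPS26, VPS29 and VPS35 carries cargo from endosomes to the Golgi or the surface. Vps26a stood at 80.5 and 89.0 FPKM, Vps29 at 109 and 118 FPKM, and Vps35 at 70.4 and 76.8 FPKM, with p-values in the authors' deposited table of 0.326, 0.516 and 0.4. SNX1 and SNX2 bend the membrane into tubules. Snx1 stood at 106 and 115 FPKM and Snx2 at 82.0 and 101 FPKM, the latter a difference of 0.30 on the log2 scale (p = 0.0645, q = 0.651 in the authors' deposited table). Snx3, a retromer partner and the most abundant of these genes, stood at 191 and 205 FPKM (log2 fold change 0.10, p = 0.509 in the authors' deposited table). Over the 6 genes the median was 0.12 on the log2 scale, beside 0.00 for the 11804 loci.

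Related genes kept similar shares in the 2 groups. Vps4b made up 67.4% of the VPS4 level in the MEK1-low group and 65.5% in the MEK1-hi group. Stam made up 50.8% and 52.0% of the STAM pair. Clta made up 95.5% and 95.2% of the clathrin light chains, with Cltb the remainder. Vps26a made up 85.9% and 87.5% of the 2 VPS26 retromer forms. Vps37a made up 29.8% and 33.6% of the summed level of Vps37a, Vps37b and Vps37c, the largest shift among these 8 families. No spread between samples accompanies these shares.

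**Figure D4:**
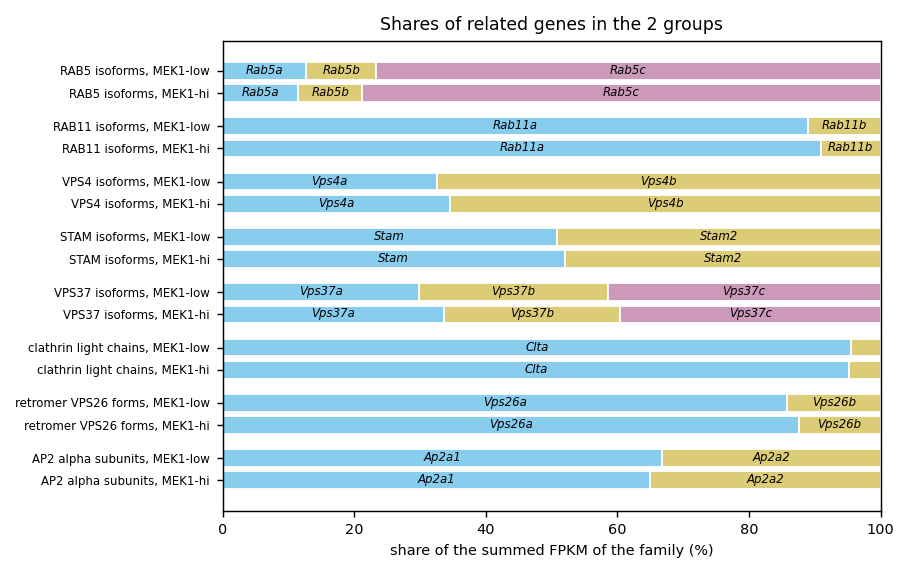
Share of the summed FPKM (%) held by each gene of 8 families, with an upper bar for MEK1-low and a lower bar for MEK1-hi exosomes in each pair. The bars of a pair are alike, with Rab5c at 76.6% and 78.8% of the RAB5 genes.

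Calls did occur among neighbouring genes of the same routes. A further 174 genes were listed in 7 classes by function, of which 164 were tested. In the authors' deposited table, 3 of these rose (Dab2, Bin1 and Rab39) and 2 fell (Sdc1 and Rab11fip1), beside 0.751% and 1.69% of all tested loci. Without adjustment (p under 0.05), 7 had higher and 7 lower values, or 4.27% each way, which is near the 3.53% higher and 5.12% lower among all tested loci. Their median difference was 0.02 on the log2 scale.

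The other clathrin coat and adaptor genes held 2 of the calls. The scalings tried shift every log2 value by only 0.04 or -0.001. As deposited and under each of these scalings, values were higher in 25 of 29 tested. This is 86.2%, beside 50.2% of the 11804 loci as deposited and 58.3% after rescaling to the same total. The class, like the others, was listed with earlier results of these data known. Dab2, an endocytic adaptor for receptors of the LDL receptor family (chromosome 15, 6299788 to 6440712), rose from 72.3 to 136 FPKM, 1.88-fold (q = 0.00349 in the authors' deposited table). Bin1, whose protein bends membranes during endocytosis, rose from 71.3 to 110 FPKM, 1.55-fold (q = 0.00636 in the authors' deposited table). Hip1, a link between clathrin and actin, stood at 38.2 and 64.4 FPKM (p = 0.0044, q = 0.126 in the authors' deposited table). Ap1b1, a subunit of the AP1 adaptor of the Golgi and endosomes, stood at 24.4 and 34.4 FPKM (p = 0.0021, q = 0.0734 in the authors' deposited table). These 4 of 29 were the only genes of the class at an unadjusted p under 0.05, beside 3.53% of all tested loci higher and 5.12% lower. The class had a median of 0.16 on the log2 scale. Hip1 and Ap1b1, like Rab9, Tbc1d10a, Sdc4, Vamp8 and Vps26b below, were named after their values were seen.

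Among 20 other Rabs tested, Rab39 (chromosome 9, 53684110 to 53706232) rose from 1.15 to 2.70 FPKM, 2.35-fold (q = 0.00349 in the authors' deposited table). Rab9, which serves transport from late endosomes to the Golgi, stood at 19.6 and 14.7 FPKM (p = 0.0169, q = 0.307 in the authors' deposited table). Values were higher in 9 and lower in 11, or in 12 and 8 after rescaling to the same total, with a median of -0.00. Among 30 regulators and effectors of Rabs, Rab11fip1, an effector of RAB11, fell from 9.22 to 5.86 FPKM (log2 fold change -0.65, q = 0.0241 in the authors' deposited table). Tbc1d10a, a GTPase-activating protein for RAB27A and RAB35, stood at 17.6 and 12.1 FPKM (p = 0.002, q = 0.0707 in the authors' deposited table). Values were higher in 11 and lower in 19, or in 14 and 16 after rescaling to the same total, with a median of -0.05.

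Sdc1, which encodes syndecan-1, a surface proteoglycan whose tail binds syntenin, had the largest fall of these classes. Sdc1 (chromosome 12, 8771323 to 8793715) fell from 39.7 to 17.3 FPKM, 2.30-fold (log2 fold change -1.20, q = 0.00349 in the authors' deposited table). Its binding partner gene Sdcbp, as given above, was not called. Sdc4, a related syndecan, stood at 33.0 and 37.1 FPKM (p = 0.257 in the authors' deposited table). Among the 22 vesicle release and SNARE genes tested, Vamp8, a SNARE of endosomal fusion, stood at 305 and 234 FPKM (p = 0.009, q = 0.205 in the authors' deposited table). Values were higher in 8 and lower in 14, and the split was 11 and 11 after rescaling to the same total.

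The 3 remaining classes had 0 calls by Cuffdiff. Of 20 other ESCRT and accessory genes tested, 0 had higher and 2 lower values with an unadjusted p under 0.05, beside 3.53% and 5.12% of all tested loci. These were Ubap1, an ESCRT-I subunit, at 40.5 and 27.8 FPKM (p = 0.011, q = 0.236 in the authors' deposited table), followed by Gga2, of a Golgi adaptor, at 41.4 and 29.8 FPKM (p = 0.0211, q = 0.351 in the authors' deposited table). Of 25 other retromer, sorting nexin and WASH genes, 2 had higher and 0 lower values at that threshold, beside the same shares of all tested loci. Snx5, the partner of SNX1 and SNX2, stood at 219 and 277 FPKM (p = 0.0281, q = 0.422 in the authors' deposited table), and Ehd4, a membrane-shaping ATPase of endosomes, at 71.2 and 91.8 FPKM (p = 0.018, q = 0.321 in the authors' deposited table). The second VPS26 gene, Vps26b, stood at 13.3 and 12.7 FPKM, and values of this class were higher in 15 and lower in 10. Of 18 genes of the HOPS and CORVET tethers and of endosomal lipid kinases, 0 reached p under 0.05 in the authors' deposited table, and their values were higher in 11 and lower in 7.

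**Figure D5:**
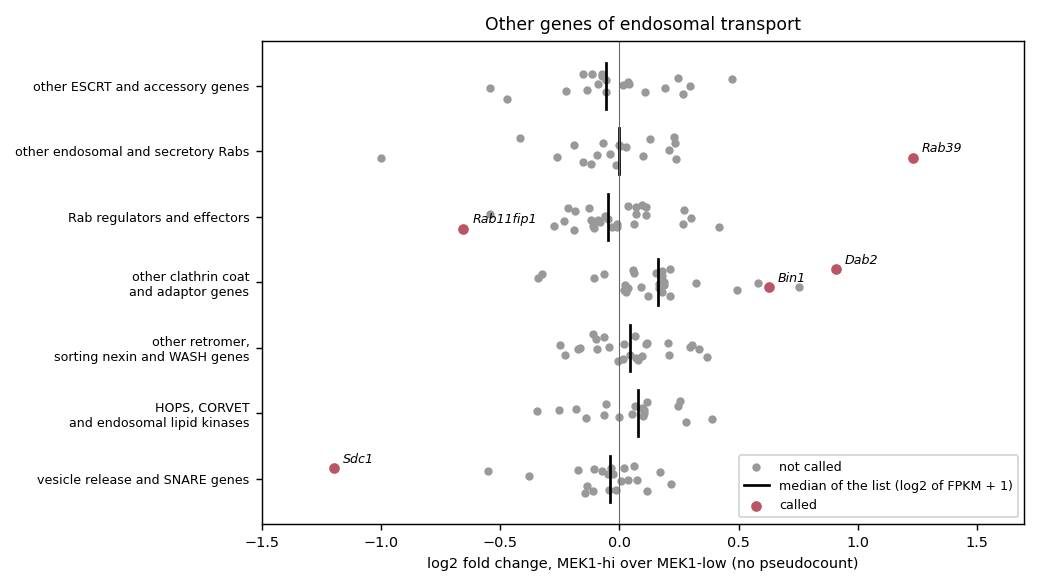
Log2 fold change (MEK1-hi over MEK1-low, no pseudocount) of the 164 tested genes of 7 further classes, spread vertically for legibility. Red points mark the 5 called genes (Dab2, Bin1, Rab39, Sdc1 and Rab11fip1), and black bars mark the median of each class on the log2(FPKM + 1) scale.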

How the data were processed

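Transcripts of 4 macrophage samples, 2 per group, were measured by stranded mRNA sequencing. Per the submitters' processing notes, the tools were TopHat, Cufflinks and Cuffdiff, after FastQC 0.73, with the build mm10, and settings are not given in the sources used here. The authors deposited 1 table, laid out as a Cuffdiff gene test per the file headers, with 1 FPKM value per group. It also holds the authors' deposited p-value and q-value and their test statistic, a score. The column GFP exo was matched to MEK1-low through the treatment label. Depth per sample is unknown.

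Log2 fold changes were computed from the deposited FPKM (Python 3.11.15, pandas 2.3.3), without a pseudocount for single genes and with 1 FPKM added for medians, over tested loci of 1 FPKM or more. Computations were tested on simulated data. No test of single genes other than the authors' was possible. Adjusting the deposited p after Benjamini-Hochberg over all 12648 tested loci gave the deposited q within 5.19e-07. A symbol was found for 54771 of 55029 gene identifiers. Starts were converted to count from 1. Reads of genes joined in a locus cannot be told apart, which concerned 6 of the 48 genes.

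The genes and classes were chosen with earlier results of these data known. All genes of the set are named. Of the further classes, called genes are named, and in classes without one up to 3 with a deposited p under 0.05. One further listed gene is not analysed here. Alternatives covered thresholds, filters, pseudocounts, scaling and joined loci.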

Additional observations from a re-analysis of the deposited data

How the results depend on the processing

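At a q under 0.1, 0 endosomal sorting genes were called as well, the lowest q of the set in the authors' deposited table being 0.276. A q under 0.01, an absolute test statistic of at least 2 and the filters can only remove calls. The filters left out joined loci, or kept loci at 1 or 5 FPKM or more. Their counts of 0 were thus fixed in advance and are no check of the result. At an unadjusted p under 0.05, 1 gene was higher and 2 were lower. Without joined loci the counts were 0 higher and 1 lower, at 5 FPKM or more 0 higher and 2 lower, and at a p under 0.01 they were 0 and 0. Of the further pathway genes, 3 rose and 2 fell, and at a q under 0.01 3 rose and 1 fell, Rab11fip1 being lost. At a q under 0.1 the counts were 4 higher and 3 lower, with Ap1b1 and Tbc1d10a added, and at 5 FPKM or more they were 2 and 2, without Rab39. The median log2 fold change of the 48 genes lay between 0.00 and 0.05 under all alternatives. Rescaling to the same FPKM total added 0.04 to every log2 value, which turned the split from 26 higher and 22 lower to 32 and 16, and that of all loci at 1 FPKM or more from 50.2% to 58.3% higher. No paired analysis was possible because the table holds 1 value per group, and for the same reason no replicate could be left out. The depth is unknown and the precision of single values cannot be given.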

Other observations

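The authors' p-values and test statistics did not order the endosomal sorting genes alike. In the authors' deposited table, Rab27a had a test statistic of 0.986 with p = 0.0412, while Eea1 had a larger statistic of 1.15 with p = 0.0936 and Snx2 one of 1.29 with p = 0.0645. Rab11a had a statistic of 0.0417 with p = 0.722 in the authors' deposited table, at a log2 fold change of 0.10, whereas Clta had 0.481 with p = 0.49 at the same log2 fold change. The cause was not tested. These genes were chosen after their values were seen.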
